A study of Drosophila melanogaster with 6 samples.

Results

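The minor 5S rRNA gene copies are the 10 transcripts of the table whose annotated symbol begins with 5SrRNA:, other than the main copy 5SrRNA:CR33434, out of 527 listed transcripts that matched the annotation (4 more did not). They were chosen by name, with earlier results of these data known. The main copy, which was left out, held the most 5S counts, so each minor copy was rarer than it by that choice. The 10 are CR33366, CR33367, CR33405, CR33418, CR33420, CR33423, CR33428, CR33432, CR33441 and CR33452. Short RNA was sequenced from midguts of female fruit flies at 1 week of age, in 3 libraries from flies heterozygous for dC53EY22749 (the Polr3D mutant) and 3 libraries from White Dahomey flies (the wild type). dC53EY22749 is a P-element insertion in Polr3D, which encodes a subunit found only in RNA polymerase III (Pol III). It was backcrossed into the outbred Dahomey background, so that both genotypes share that background. Homozygotes are not viable, and the mutants therefore model a partial loss of function that was present from development onwards. Midgut RNA was extracted from pools of 12 dissected guts, a number given with the fly RNA extraction and not repeated for sequencing. The sources do not say whether libraries of a genotype came from separate sets of flies, so the p-values below measure the spread between these libraries. Neither Polr3D mRNA nor midgut marker mRNAs were analysed here, and genotype and tissue rest on the labels. In tissue of many cell types, fewer cells of a type and less RNA per cell cannot be told apart.

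The 5S rRNA is an rRNA of the large ribosomal subunit, where it joins the 28S and 5.8S rRNAs, and it is the only rRNA made by Pol III. Its promoter lies inside the gene and is recognised by TFIIIA, a factor used for the 5S genes, which then brings in TFIIIC and TFIIIB. In flies the 5S genes stand head to tail in 1 tandem array, and the primary transcript is trimmed at its 3′ end to the mature rRNA. The comparison asks whether copies that are listed apart from the main one differed in abundance when Pol III was partly lost.

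The array spans 36717 bases on chromosome arm 2R of the BDGP6 assembly (19729562 to 19766278, minus strand). It holds 96 annotated 5S rRNA genes and 4 annotated 5S pseudogenes, each unit starting a median of 369 bases (range 359 to 402) after the previous one, and no other annotated gene overlaps any of them. Only 11 of the 96 genes had a row of their own, and the other 85 had none. Salmon, the program used for quantification, by default keeps 1 of each set of identical sequences, so that a listed copy can stand for several genes, but the 5S sequences were not compared here. Every minor copy is annotated as a gene of 1 exon and 135 bases, except CR33405 with 134 bases, so their counts can be set side by side without a correction for length. Whether the listed copies are spread unevenly along the array was not tested. Counted in the direction of transcription, CR33366 and CR33367 are neighbours at places 14 and 15, CR33405 is at place 53, and the other 7 lie between places 66 and 100. CR33452 is the last unit of the array.

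**Figure D1:**
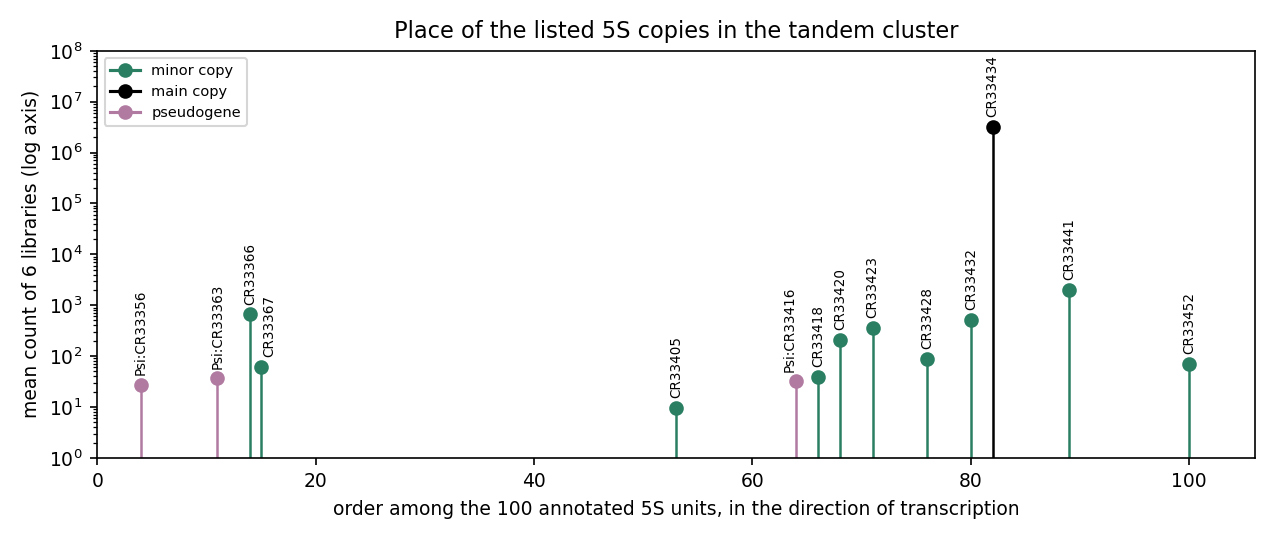
Mean count of 6 libraries (log axis) of each listed 5S copy against its order among the 100 annotated 5S units, for the 10 minor copies (green), the main copy (black) and 3 pseudogenes (purple). The neighbours CR33366 and CR33367, at places 14 and 15, had mean counts of 656 and 61.8.

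Library totals ran from 13465392 to 16891428 counts. Nuclear tRNAs took 16.1% of mutant replicate 3, beside 14.5% and 15.2% of mutant replicates 1 and 2. They took 10.7% to 11.3% of the wild-type libraries. The 5.8S rRNA and its pseudogenes took 38.0%, beside 37.9% and 35.2%, and 43.9% to 45.1% in the wild type. In these classes mutant replicate 3 lay with the other mutants. Mutant replicate 3 stood apart in the main 5S copy and the mitochondrial tRNAs. The main 5S copy took 17.0% of its counts, against 25.0% and 26.4% in mutant replicates 1 and 2 and 17.9% to 22.2% in the wild type. Mitochondrial tRNAs took 24.0% of mutant replicate 3, the highest share of the 6 libraries. The calls, the sum, the shares and the ratios to the main copy are therefore also given without it.

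Together the minor copies were rare. They held 24122 counts over the 6 libraries, while the main copy held 19433488. Their sum was 4623, 5615 and 3457 counts in mutant replicates 1, 2 and 3, and 2890, 3575 and 3962 counts in wild-type replicates 1, 2 and 3. All 10 had counts in every library, from a lowest value of 3 (CR33405) to a highest of 3033 (CR33441), and summed counts of the most and the least abundant copy differed 207-fold. CR33441 alone made up 49.9% of the minor counts, and with CR33366 it made up 66.2%.

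Levels were expressed as counts per 1000000 counts after TMM scaling (CPM), where TMM is a factor per library that allows for unequal composition. By mean CPM over the 6 libraries CR33441 came first, with 133 CPM, 3.03-fold the mean of the next copy, CR33366. It lay above CR33366 in all 6 libraries, with no overlap of their ranges. The next 3 copies were CR33432 with 33.9 CPM, CR33423 with 23.2 CPM and CR33420 with 13.7 CPM. The order of CR33366 (43.8 CPM) over CR33432 held in 4 of 6 libraries, that of CR33432 over CR33423 in 5 of 6 and that of CR33423 over CR33420 in 4 of 6, and each pair overlapped in range. Below them were CR33428 (5.88 CPM), CR33452 (4.65 CPM) and CR33367 (4.05 CPM), whose ranges overlapped. CR33418 had 2.60 CPM, and CR33405, the shorter copy, was last with 0.624 CPM, below CR33418 in all 6 libraries.

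**Figure D2:**
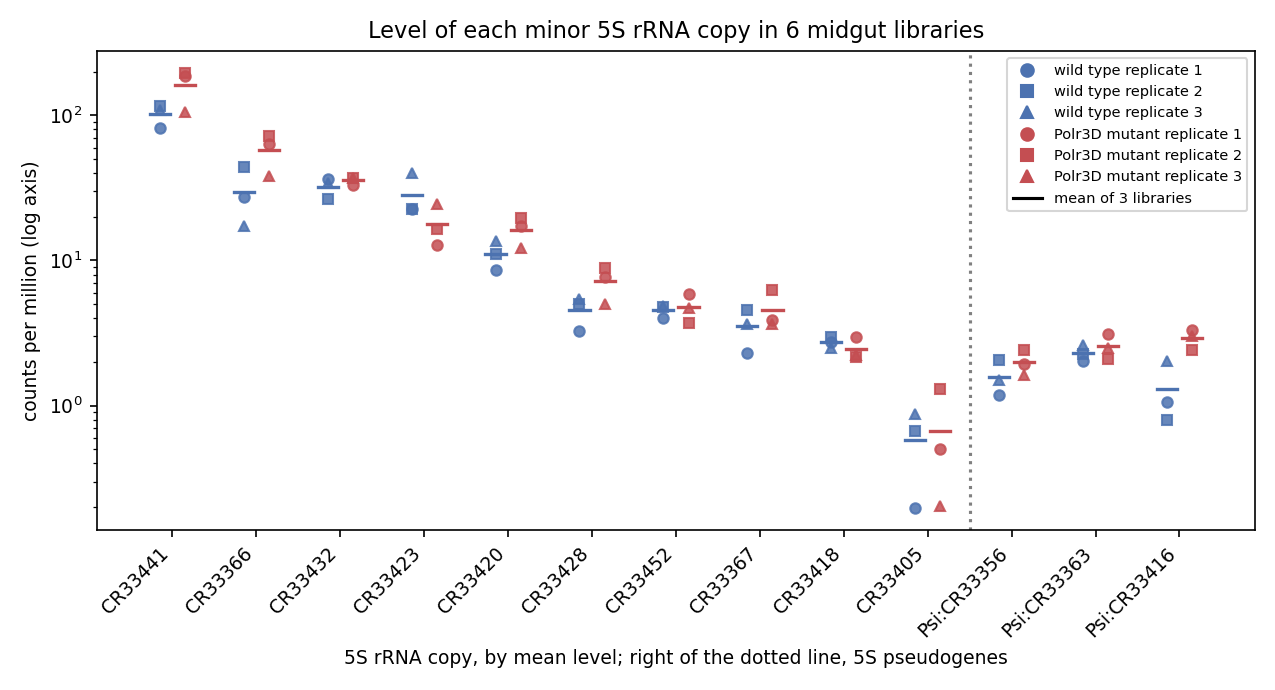
CPM (log axis) of each minor 5S copy, ordered by mean, and of 3 annotated 5S pseudogenes to the right of the dotted line, in 3 wild-type (blue) and 3 Polr3D mutant (red) libraries, with horizontal bars for group means. CR33418 lay at the level of the pseudogenes and CR33405 below it.

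The rarest copies can be set beside the annotated 5S pseudogenes, but whether the pseudogene counts are background was not tested. The 3 listed ones held 12 to 46 counts per library, with lengths of 143 or 144 bases. CR33418 held 33 to 45 counts per library, within that range, and CR33405 held 3 to 20. The other 8 copies had at least 35 counts in each library, and CR33367 overlapped the pseudogenes at its lowest value.

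Between the genotypes, 8 of the 10 minor copies had a log2 fold change above 0 (mutant over wild type) and 2 below 0. Of all 411 transcripts tested, 44.5% were above 0, among them 70 of 80 nuclear tRNAs, 21 of 22 mitochondrial tRNAs and 57 of 243 snoRNAs. On library totals as the scale 6 of the 10 minor copies were above 0, beside 26.5% of all transcripts. On mitochondrial tRNAs it was 6 of the 10 beside 25.8%, and on the main 5S copy 4 of the 10 beside 14.4%. None of the 10 passed an adjusted p of 0.10 in edgeR's quasi-likelihood test, the threshold at which 1.22% of all tested transcripts were called. At an unadjusted p under 0.05 there were 4 of the 10, beside 14.8% of all transcripts. In none of the 10 were the 3 mutant libraries separated from the 3 wild-type libraries, whereas 18.7% of all transcripts were separated in 1 direction or the other. The median log2 fold change was 0.30 for the minor copies and -0.052 for all tested transcripts. All 10 passed the filter on low counts.

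CR33441 (FBtr0086433; 2R, 19733671 to 19733805) had 186, 197 and 105 CPM in mutant replicates 1, 2 and 3, and 82.1, 116 and 108 CPM in the wild-type replicates. Mutant replicates 1 and 2 were above every wild-type library, and mutant replicate 3 was within the wild-type range. Its log2 fold change was 0.67 (SE 0.24, 95% interval 0.14 to 1.21, edgeR adjusted p = 0.253).

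CR33366 (FBtr0086358; 2R, 19761343 to 19761477) had the largest fold change of the 10. It had 63.3, 72.6 and 38.2 CPM in the mutant and 27.5, 43.7 and 17.4 CPM in the wild type. The low mutant library lay between the wild-type values, so that the groups overlapped. The log2 fold change was 0.97 (SE 0.34, 95% interval 0.21 to 1.74, edgeR adjusted p = 0.245). Its neighbour CR33367 had 3.90, 6.24 and 3.63 CPM in the mutant against 2.30, 4.59 and 3.67 CPM in the wild type, with overlap (log2 fold change 0.39, SE 0.33, edgeR adjusted p = 0.582).

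CR33420 and CR33428 leaned the same way. CR33420 (FBtr0086412; 2R, 19741406 to 19741540) had 17.3, 19.6 and 12.1 CPM in the mutant and 8.54, 11.1 and 13.6 CPM in the wild type, with mutant replicate 3 again inside the wild-type range. The log2 fold change was 0.56 (SE 0.24, edgeR adjusted p = 0.328). CR33428 had 7.73, 8.84 and 5.05 CPM against 3.29, 4.98 and 5.41 CPM, overlapping in the same library (log2 fold change 0.66, SE 0.29, edgeR adjusted p = 0.331).

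CR33423 (FBtr0086415; 2R, 19740305 to 19740439) pointed the other way. It had 12.8, 16.5 and 24.5 CPM in mutant replicates 1, 2 and 3, and 22.7, 22.6 and 40.1 CPM in the wild type. Here too mutant replicates 1 and 2 lay outside the wild-type range, this time below it, and mutant replicate 3 lay inside it. The log2 fold change was -0.67 (SE 0.30, 95% interval -1.34 to 0.0069, edgeR adjusted p = 0.331). Without wild-type replicate 3, its highest library, it was -0.34 (edgeR adjusted p = 0.654).

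The remaining copies had fold changes closer to 0. CR33432, the third most abundant, was the steadiest of the well-counted copies, with 33.1, 36.9 and 36.8 CPM in the mutant and 36.4, 26.3 and 33.9 CPM in wild types. The log2 fold change came to 0.15 (95% interval -0.22 to 0.51). CR33452 had 0.064 (95% interval -0.49 to 0.62) and CR33418 had -0.17 (95% interval -0.78 to 0.43). CR33405, with at most 20 counts in a library, had 0.20 (95% interval -1.44 to 1.85), an interval that reaches past 1 in both directions. Across these 4 copies edgeR's adjusted p ran from 0.641 to 0.891.

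**Figure D3:**
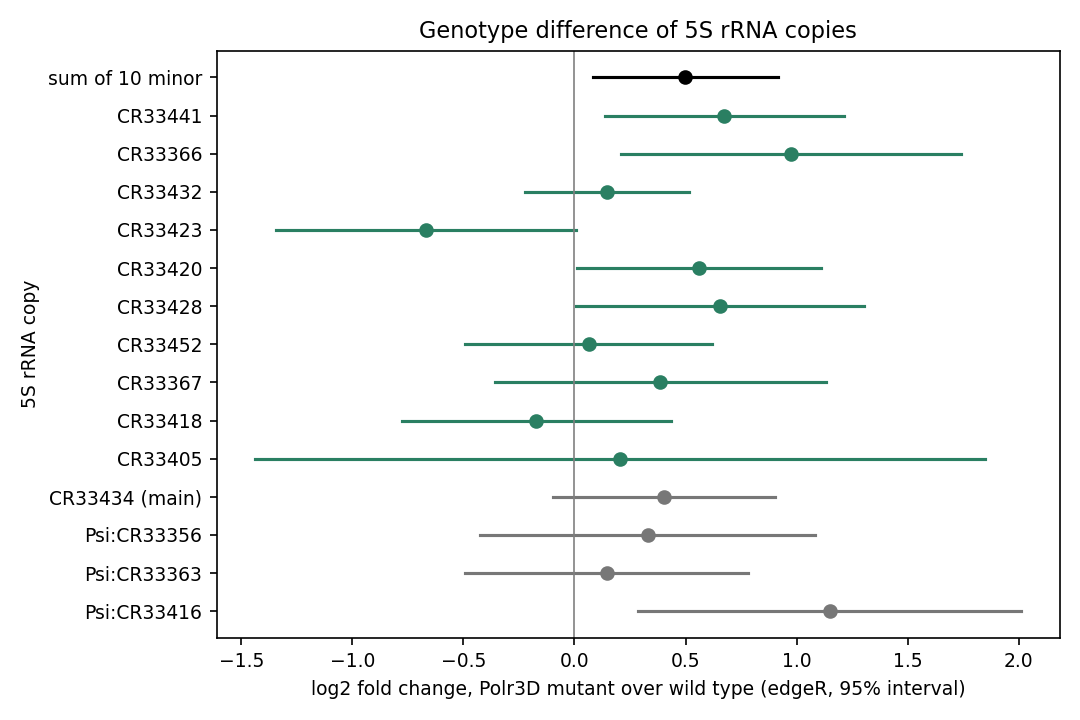
Log2 fold change (Polr3D mutant over wild type, edgeR) with 95% intervals for the sum of the 10 minor copies (black), each minor copy (green), and the main copy and 3 pseudogenes (grey). The intervals of CR33441, CR33366, CR33420 and CR33428 lay above 0 before adjustment, while that of CR33423 reached 0.0069.

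These calls changed with the tool and with 1 library. With DESeq2, the tool of the study, 2 of the 10 passed, CR33366 (log2 fold change 0.99, DESeq2 adjusted p = 0.0910) and CR33441 (0.71, DESeq2 adjusted p = 0.0986), where 7.21% of all transcripts passed. Without mutant replicate 3, edgeR called 5 of the 10, CR33366, CR33420, CR33428 and CR33441 as higher and CR33423 as lower, but 11.3% of all transcripts were then called.

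Summed over the 10 copies, so that reads exchanged between them cannot matter, the minor 5S counts stood at 334, 366 and 231 CPM in mutant replicates 1, 2 and 3, and at 190, 238 and 231 CPM in wild-type replicates 1, 2 and 3. The mutant mean was 310 ± 70.8 CPM (SD, n = 3) and the wild-type mean 220 ± 25.9 CPM (SD, n = 3). Mutant replicate 3 could not be told from wild-type replicate 3. The log2 fold change was 0.50 (SE 0.18, 95% interval 0.083 to 0.92, edgeR adjusted p = 0.291), and without mutant replicate 3 it was 0.68 (edgeR adjusted p = 0.0603). Without any other single library it was 0.39 to 0.56, with edgeR adjusted p of 0.392 to 0.513. As a share of all counts the minor copies took 0.0292% ± 0.0062 in mutants and 0.0232% ± 0.00158 in wild types (SD, n = 3 each), and the groups overlapped (two-sided exact permutation test, p = 0.3, where 3 libraries against 3 cannot give less than 0.1). The difference was 0.00605 percentage points, and 0.00962 without mutant replicate 3 (exact permutation p = 0.2).

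A ratio within the 5S rows does not depend on how libraries are scaled. Minor copies made up 0.13%, 0.126% and 0.13% of all 5S counts in mutant replicates 1, 2 and 3, and 0.120%, 0.137% and 0.106% in the wild-type replicates. The mutant values were close together and lay inside the wild-type range. The means were 0.128% ± 0.00239 and 0.121% ± 0.0154 (SD, n = 3 each), a difference of 0.00754 percentage points (exact permutation test, two-sided p = 0.6). The difference was 0.00673 without mutant replicate 3, but 0.000135 without wild-type replicate 3 and 0.0155 without wild-type replicate 2, so its size rested on single wild-type libraries. For a single library the 95% Wilson interval had a half-width of at most 0.00448 percentage points, which covers counting error only, so the wild-type libraries differed from each other by more than counting error.

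Set against the main copy one by one, the copies fell into different patterns. CR33420 kept nearly the same ratio in every mutant library, with 67.1, 67.7 and 67.8 counts per 1000000 counts of CR33434, against 54.0, 64.0 and 62.4 in the wild type. It was the only copy of the 10 whose ratio was separated between the genotypes (two-sided exact permutation p = 0.1, the smallest possible; Benjamini-Hochberg adjusted over 11 ratios, 0.44). The separation was small. Its log2 ratio was higher in the mutant by a mean of 0.17, where counting error alone gives an SD of 0.10 at its mean count. The SD of its log2 ratio in the mutant, 0.0085, was below that counting error, so counting does not resolve such closeness. Of the 410 tested transcripts other than the main copy, CR33420 included, 21.7% were separated in this ratio, 4 higher and 85 lower. CR33366 had ratios of 246, 250 and 214 in the mutant and 174, 252 and 80.1 in the wild type, so that wild-type replicate 3 was far below the other 5 libraries. For CR33441 they were 724, 680 and 589 in the mutant and 519, 668 and 499 in the wild type, which overlapped.

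The ratios of CR33423 were 49.7, 56.9 and 137 in the mutant, against 144, 130 and 185 in the wild type. Its log2 ratio was lower in the mutant by a mean of 1.05, the largest difference of the 10, but with mutant replicate 3 among the wild-type values (exact permutation p = 0.2, adjusted 0.44). CR33432 had ratios of 129, 127 and 206 in the mutant and 230, 152 and 156 in the wild type, again with mutant replicate 3 above the other mutant libraries. No ratio of a single copy or of the sum passed the adjustment over 11 ratios. Without mutant replicate 3 the log2 ratio was lower in the mutant by a mean of 1.51 for CR33423 and 0.46 for CR33432, each with separated groups (exact permutation p = 0.2, the smallest that 2 libraries against 3 can give). Of the 10 copies 6 were then separated, 3 higher and 3 lower, beside 72.2% of the 410 tested transcripts other than the main copy, these 10 included.

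**Figure D4:**
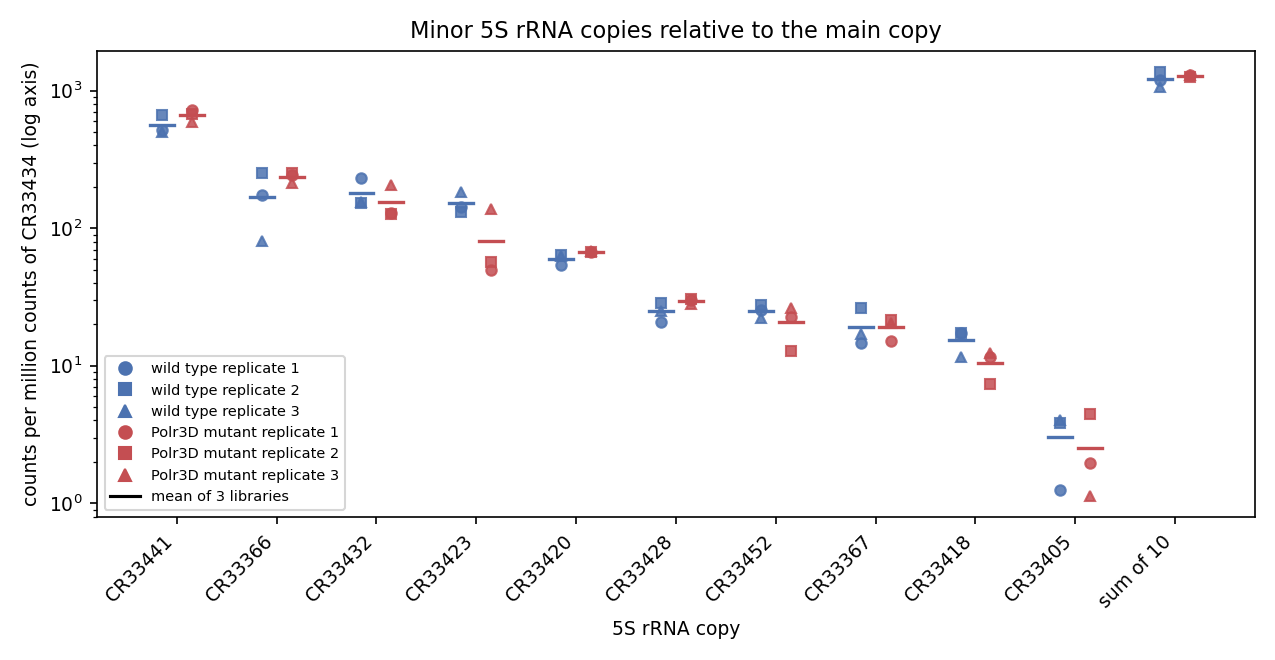
Each minor copy, and their sum, in counts per 1000000 counts of the main copy CR33434 (log axis), in 3 wild-type (blue) and 3 Polr3D mutant (red) libraries, with horizontal bars for group means. The sum stood at 1258 to 1302 in the mutant, inside the wild-type range of 1062 to 1369.

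How closely each copy followed the main one was described by the root mean square difference of their log2 CPM values, each centred on its own mean over the 6 libraries. CR33420 lay nearest, at 0.10, and only 2 of 397 transcripts that are not 5S rRNA lay nearer to the main copy. CR33428 (0.16, with 9 of 397 nearer) and CR33441 (0.20, with 20 of 397 nearer) came next. All 3 were lowest in wild-type replicate 1, highest in mutant replicate 2 and lower again in mutant replicate 3, as was the main copy. At their mean counts, counting error alone gives an SD of 0.10 for CR33420, 0.15 for CR33428, 0.032 for CR33441 and 0.46 for CR33405. The distance of a copy therefore includes counting noise, most for the rarest. The 0.5 added to CPM narrows the distances of the rarest copies but not these counting errors, so there the values are not directly comparable. Reads can move between near-identical copies, and whether these rows hold reads of the main copy was not tested.

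At the other end were CR33366 at 0.58 and CR33423 at 0.70, where the median of the other transcripts was 0.39. Over the 6 libraries their log2(CPM + 0.5) had an SD of 0.75 and 0.55, while the SD that counting error alone gives at their mean counts is 0.056 and 0.076. CR33418 and CR33452 are the opposite case. Their SD was 0.17 and 0.21, beside counting errors of 0.23 and 0.17, so their libraries differed by no more than, or little more than, counting error. The 0.5 added to CPM narrows these SDs but not the counting errors, so the comparison is rough.

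**Figure D5:**
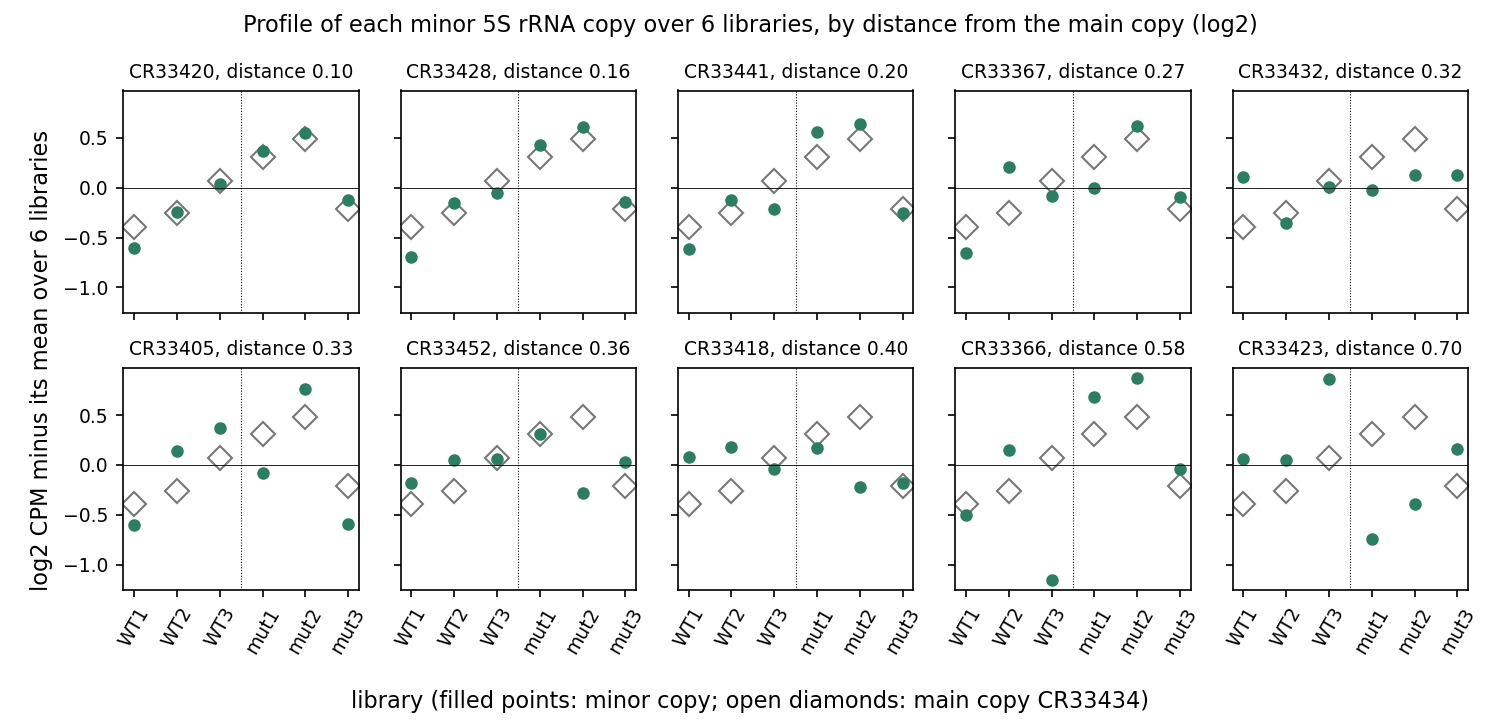
Log2 CPM minus its mean over 6 libraries for each minor copy (filled points) and for the main copy CR33434 (open diamonds), in 3 wild-type (WT) and 3 mutant (mut) libraries, ordered by distance from the main copy. CR33420, at a distance of 0.10, lay close to the diamonds, and CR33423, at 0.70, lay far from them.

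The other Pol III products and rRNAs, taken from fixed lists, show where the minor copies stand. The main 5S copy had a log2 fold change of 0.40 (edgeR adjusted p = 0.414), close to the 0.50 of the summed minor copies. Nuclear tRNAs had a median log2 fold change of 0.34, with 5 of 80 called by edgeR, all higher, 30 at an unadjusted p under 0.05, and 22 called higher and 2 lower by DESeq2. The other Pol III transcripts (7SL, U6, U6atac and RNase P RNA) had a median of -0.19, with 0 of 4 called by edgeR or DESeq2 and 1 at an unadjusted p under 0.05. Mitochondrial tRNAs are transcribed by the mitochondrial polymerase, and their median was 0.25, with 0 of 22 called by edgeR, 1 by DESeq2 and 3 at an unadjusted p under 0.05. The 5.8S rRNA and its 4 listed pseudogenes had a median of -0.094, with 0 of 5 called by either tool or at an unadjusted p under 0.05. The snoRNAs had a median of -0.14, with 0 of 243 called by edgeR, 2 by DESeq2 and 21 at an unadjusted p under 0.05. The minor copies, with a median of 0.30, lay between the nuclear and the mitochondrial tRNAs, and whether the lists differ was not tested. These medians are relative to TMM scaling, and on library totals the median of all tested transcripts moved from -0.052 to -0.22.

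Of the 3 listed 5S pseudogenes, CR33416 (2R, 19742876 to 19743018) had 46, 37 and 45 counts in the mutant and 16, 12 and 35 in the wild type, so that its groups did not overlap. Its log2 fold change was 1.15 (SE 0.38, edgeR adjusted p = 0.235), larger than that of any minor copy, and DESeq2 called it. It lies at place 64, and CR33418 at place 66. For CR33356 and CR33363 the log2 fold changes were 0.33 and 0.14, and their groups overlapped.

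Outside the 5S family, the profile of the summed minor copies was matched most closely by tRNA:Glu-CTC-2-1, at a root mean square difference of 0.083 over the 6 libraries, then by mt:tRNA:Phe-GAA at 0.12 and tRNA:Glu-CTC-1-1 at 0.13. The main 5S copy lay at 0.12 and the median of 397 transcripts at 0.41. tRNA:Glu-CTC-2-1 had 14448 CPM, 17927 CPM and 11124 CPM in the mutant and 9456 CPM, 10335 CPM and 11205 CPM in the wild type. Its mutant replicate 3 lay inside the wild-type range. It was picked for its likeness to the sum, so this shared pattern is not a separate observation.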

How the data were processed

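Midgut RNA was size-selected (under 200 nucleotides) and treated to remove methyl groups, sequenced as paired reads of 75 bases, trimmed with Cutadapt (version 2.10) and quantified with Salmon (version 0.13.2) on BDGP6, release 32; these bench steps can change recovery by length and modification. The authors deposited estimated counts (expected counts) per transcript shorter than 300 bases, as whole numbers and not scaled for depth. Of the transcripts listed, 527 matched and 4 did not match the annotation used here (BDGP6, release 54) by identifier. Salmon divides reads that fit several transcripts, so near-identical 5S copies are uncertain one by one. No 5S sequence was analysed here.

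Groups came from sample titles. Tests used R 4.3.3 with edgeR 4.0.16 (filterByExpr, minimum count 10 and minimum total 15, TMM, glmQLFTest, genotype only), adjusted by Benjamini-Hochberg over 411 transcripts with a threshold of 0.10, the false discovery rate of the study. The standard error came from the F statistic. The sum was fitted in the whole table in place of its 10 rows. Centred profiles used log2(CPM + 0.5). Shares and ratios were compared by exact permutation. All tests were two-sided. The edgeR fit was also run on simulated counts drawn with its own dispersions, which cannot show whether it suits these libraries. Libraries of 1 genotype differed by more than sampling noise in every pair (chi-square over degrees of freedom at least 212).

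The text names all 10 copies, the main copy, the 5S pseudogenes (added after their values were seen) and the 3 transcripts nearest in profile to the sum. Members and lists were chosen with earlier results of these data known. Alternatives were DESeq2 1.42.0, other scalings and filters, a replicate block, other sums and each library left out.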

Additional observations from a re-analysis of the deposited data

How the results depend on the processing

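Of the 10 minor copies, edgeR called 0, while DESeq2 called 2 and edgeR with the replicate number as a block called 1 (CR33366, log2 fold change 1.02, adjusted p = 0.0308; 14 of all 411 transcripts called). Both genotypes share replicate numbers, but same-numbered libraries did not deviate together (correlations of -0.023, -0.26 and -0.20 over 411 transcripts), so the numbers were not taken as pairs. Leaving out 1 library at a time gave 0 to 5 calls, with 5 only without mutant replicate 3. Calls over all transcripts ran from 0 (without any 1 wild-type library, or with the main 5S copy as the scale) to 47 across settings, against 5; they were 16 with no filter on low counts, 12 with the stricter filter and 10 with DESeq2 size factors in edgeR. They were 5 higher and 0 lower with TMM, 8 and 8 on library totals, and 6 and 1 on mitochondrial tRNAs.

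The summed copies kept a positive log2 fold change in all 17 alternatives (0.087 to 0.68), 0.39 to 0.68 with 1 library left out. Among the 17, the sum of all 11 listed 5S rows (0.40) is nearly all main copy and says little about the minor ones. The lowest value was with the main 5S copy as the scale, an alternative chosen after seeing the data.

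Scalings on library totals, mitochondrial tRNAs and the main 5S copy moved the median of all transcripts from -0.052 to -0.22, -0.24 and -0.41. Relative to it, the median of the minor copies was 0.35, 0.36 and 0.29, against 0.35 with TMM. Under these 3 scalings CR33432 turned to -0.032, -0.060 and -0.22, and CR33452 to -0.096, -0.12 and -0.29. On the main copy CR33367 turned to -0.019 and CR33405 to -0.22. With 1 library left out CR33452 ran from -0.11 to 0.24 CR33405 from -0.69 to 0.65 and CR33423 from -0.94 to -0.34. Without mutant replicate 3, an alternative for the ratios chosen after seeing the data, the log2 ratio to the main copy changed sign for CR33367 (-0.047) and CR33405 (0.15). CR33405 could not be fitted with at least 10 counts required in every library.

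Without CR33441 the minor share of 5S counts differed by -0.00271 percentage points (mutant minus wild type), and that of all counts by 0.00148. With 1 library left out the share of 5S counts differed by 0.000135 to 0.0155 and that of all counts by 0.00405 to 0.00962. Depth limits CR33405 most, with 3 to 20 counts a library.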
